A study of Mus musculus with 2 samples.

Results

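The genes described here are 10 components of the mammalian circadian clock, chosen by name from the rows of the deposited table of all genes: Per1, Per2, Per3, Dbp, Tef, Hlf, Nr1d1, Nr1d2, Ciart and Arntl. All 10 had a row among 23647 genes, and all 10 passed the minimum mean level of 1 CPM (counts scaled to the library total) that left 13684 measured genes. Npas2, which is not one of the 10, was compared with Arntl. Polyadenylated RNA came from PDGFRa+ cells, which had been sorted out of the stromal vascular fraction (non-fat cells freed by collagenase) of mouse inguinal white adipose tissue. Both groups were 3-week-old mice labelled male and given doxycycline (Dox) at postnatal day 1. One group carried the genotype Sox9 floxed, labelled WT, and the other Sox9 PreASKO, labelled KO. The design text gives 3 pooled mice, and each group is 1 library. The sources used here do not give the promoter that drives the deletion or the hour at which tissue was taken.

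The circadian clock is a feedback loop of transcription that keeps daily time in most cells, adipose precursors included. BMAL1, encoded by Arntl, pairs with CLOCK or its relative NPAS2 and binds E-boxes in the genes of its own repressors, the PER, CRY and CHRONO proteins, CHRONO being the product of Ciart. The same activator drives the REV-ERB receptors (Nr1d1 and Nr1d2) and the PAR bZIP factors DBP, TEF and HLF, which pass the rhythm to further genes through D-boxes. REV-ERBs repress Arntl, Npas2, Nfil3 and Cry1 through ROR elements, so transcripts of the BMAL1 arm and of the output arm peak at different times of day. Per1 and Per2 can also be induced directly, for example through CREs or by glucocorticoids.

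Promoter windows of 6 members are shown to give examples of these elements in genes that were lower (Per3, Tef and Nr1d1), higher (Per1 and Ciart) or level (Arntl) in the PreASKO library. Each window runs from 250 bases before to 50 bases after a RefSeq start on GRCm38.p6, the assembly of mm10, 5′ to 3′ on the gene's strand. Capitals mark matches on either strand to the E-box CACGTG, the E-prime box CACGTT, the D-box TTATGNAA, the ROR element ANTNGGTCA or the CRE TGACGTCA. The windows lie at chr4:151044616-151044915 (minus strand) for Per3, chr15:81811164-81811463 (plus) for the second Tef start, and chr11:98775328-98775627 (minus) for Nr1d1. Those of the other genes lie at chr11:69098699-69098998 (plus) for the first Per1 start, chr3:95882179-95882478 (minus) for Ciart, and chr7:113207261-113207560 (plus) for the second Arntl start.
Per3: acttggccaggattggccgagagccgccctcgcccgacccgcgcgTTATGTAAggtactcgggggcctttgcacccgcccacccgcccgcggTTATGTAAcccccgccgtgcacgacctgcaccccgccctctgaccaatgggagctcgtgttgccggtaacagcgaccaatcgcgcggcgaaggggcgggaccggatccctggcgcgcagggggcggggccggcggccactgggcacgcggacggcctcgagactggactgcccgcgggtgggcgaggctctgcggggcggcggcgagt
Tef: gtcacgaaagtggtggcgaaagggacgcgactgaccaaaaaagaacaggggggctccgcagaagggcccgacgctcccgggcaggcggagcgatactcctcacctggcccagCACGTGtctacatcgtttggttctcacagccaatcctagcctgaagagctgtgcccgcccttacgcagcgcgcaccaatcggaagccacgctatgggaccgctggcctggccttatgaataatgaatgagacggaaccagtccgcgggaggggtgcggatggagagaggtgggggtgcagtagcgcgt
Nr1d1: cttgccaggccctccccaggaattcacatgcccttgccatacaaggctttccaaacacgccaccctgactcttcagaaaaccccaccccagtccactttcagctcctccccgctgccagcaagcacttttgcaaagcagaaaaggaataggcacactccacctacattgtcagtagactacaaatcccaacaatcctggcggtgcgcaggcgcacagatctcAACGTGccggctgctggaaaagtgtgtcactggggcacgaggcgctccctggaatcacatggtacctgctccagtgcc
Per1: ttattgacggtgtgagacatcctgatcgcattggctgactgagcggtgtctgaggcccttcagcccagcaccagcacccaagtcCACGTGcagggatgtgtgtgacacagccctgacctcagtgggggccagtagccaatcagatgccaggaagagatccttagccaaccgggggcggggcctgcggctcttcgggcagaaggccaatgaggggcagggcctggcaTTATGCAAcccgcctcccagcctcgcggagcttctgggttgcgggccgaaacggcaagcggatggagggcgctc
Ciart: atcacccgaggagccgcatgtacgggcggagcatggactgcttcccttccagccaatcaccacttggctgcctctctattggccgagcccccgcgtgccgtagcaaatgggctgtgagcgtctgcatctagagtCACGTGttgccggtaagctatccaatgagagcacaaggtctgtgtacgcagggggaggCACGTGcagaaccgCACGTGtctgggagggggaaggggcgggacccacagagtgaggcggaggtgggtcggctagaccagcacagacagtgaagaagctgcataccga
Arntl: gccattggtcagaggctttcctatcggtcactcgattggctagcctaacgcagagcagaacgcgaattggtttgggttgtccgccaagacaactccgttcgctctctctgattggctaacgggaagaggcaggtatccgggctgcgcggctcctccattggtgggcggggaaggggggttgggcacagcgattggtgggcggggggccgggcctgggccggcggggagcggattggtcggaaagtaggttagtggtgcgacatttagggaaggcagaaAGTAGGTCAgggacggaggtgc

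In RefSeq's table, 9 of the 10 members, all but Per2, had 12 windows in all. Among all 32851 windows of the table, an E-box stood in 7.15%, an E-prime box in 4.68%, a D-box in 3.38%, a ROR element in 2.24% and a CRE in 1.79%. Ciart held 3 E-boxes, starting at offsets of -116, -58 and -44 from its start. Both Tef windows held 1 E-box and the first Per1 window held 1, at -166. Per3 held no E-box in its window but 2 D-boxes, at -205 and -158, and Per1 held 1 D-box, at -24. Nr1d1 held an E-prime box at -28, Hlf a CRE at -9, and Arntl a ROR element at 28. These matches are letters in a window and not measured binding. Genes with an E-box in view stood on both sides, with Ciart and Per1 higher and Tef lower in the PreASKO library.

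In the PreASKO library, 7 members of the output arm, made up of the PER, PAR bZIP, REV-ERB and Ciart genes, were lower, and 2 were higher. Per3 was lowest relative to floxed, followed by Dbp and Tef, while Ciart was about 3-fold higher and Per1 moderately higher. Arntl stood at nearly the same level in both libraries, and Npas2 was higher in PreASKO. Total counts were 61761645 in floxed and 37597048 in PreASKO, and Sox9 stood at 28.6 and 17.0 CPM. Xist, a transcript typical of female cells, measured 3.24 CPM in the floxed and 745.0 CPM in the PreASKO library, and the labels call both pools male, so every difference compares pools that differ in this too. With 1 library per genotype, no replicate spread and no test exist for any of these differences. The intervals given are 95% counting intervals, exact Poisson for a level and exact binomial for a ratio, and cover counting error only.

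**Figure D1:**
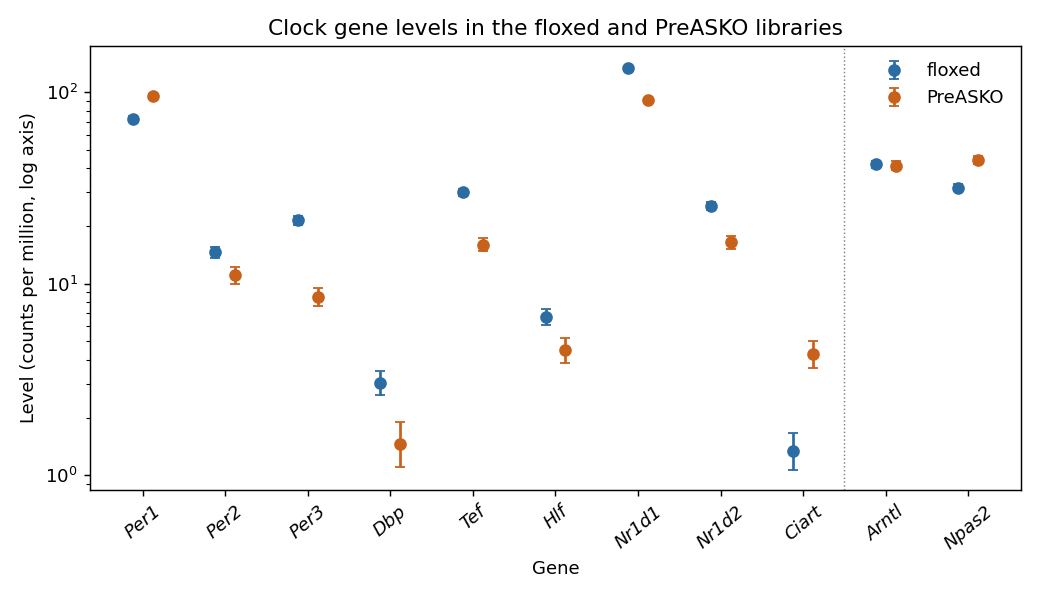
Level of each clock gene in CPM (log axis) in the floxed library (blue) and the PreASKO library (orange), with exact 95% Poisson intervals for counting error. Per3 stood at 21.5 and 8.51 CPM and Ciart at 1.34 and 4.28 CPM, while the intervals of Arntl overlap.

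The PER genes, whose proteins repress CLOCK and BMAL1, diverged from one another. Per3 (Entrez ID 18628; chromosome 4, 150997018 to 151044707, mm10) measured 21.5 CPM in the floxed (1327 counts) and 8.51 CPM in the PreASKO library (320 counts), with a ratio of 0.396 (0.350 to 0.448). Its difference in log2(CPM + 1), PreASKO minus floxed, was -1.24, at rank 77 from the lowest of 13684 measured genes. Per2 (ID 18627; chromosome 1, 91415977 to 91459351) measured 14.6 CPM in the floxed and 11.0 CPM in the PreASKO library, with a ratio of 0.758 (0.673 to 0.853). Per1 (ID 18626; chromosome 11, 69095108 to 69109965) went the other way, at 72.7 CPM in floxed against 95.1 CPM in PreASKO, a ratio of 1.31 (1.25 to 1.37). Per1 holds most counts of the 3 PER genes, whose summed level was 108.8 CPM in floxed and 114.6 CPM in PreASKO.

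All 3 PAR bZIP genes, activators that bind D-boxes, were lower in the PreASKO library. Tef (ID 21685; chromosome 15, 81802673 to 81826863), which holds most of the counts of this family, measured 29.99 CPM in the floxed (1852 counts) and 16.0 CPM in the PreASKO library (602 counts), with a ratio of 0.534 (0.486 to 0.586). Dbp (ID 13170; chromosome 7, 45705100 to 45710203) measured 3.03 CPM in the floxed (187 counts) and 1.46 CPM in the PreASKO library (55 counts), with a ratio of 0.483 (0.351 to 0.656). Hlf (ID 217082; chromosome 11, 90336535 to 90390917) measured 6.69 and 4.50 CPM, with a ratio of 0.672 (0.559 to 0.806). The counts of Dbp are so few that its interval takes in the ratios of both Tef and Per3. Summed over the family, 39.7 CPM in floxed stood against 21.97 CPM in PreASKO, a ratio of 0.553 (0.511 to 0.599). Dbp shares 539 exon bases with Sphk2 on the opposite strand and Tef 193 with Gm17597, and strand use is not stated. Sphk2 stood at 30.8 and 26.4 CPM, and what part of the Dbp counts it holds was not tested.

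The REV-ERB genes, nuclear receptors that repress the BMAL1 arm, were lower by nearly the same ratio. Nr1d1 (ID 217166; chromosome 11, 98767932 to 98775377) measured 133.7 CPM in the floxed (8259 counts) and 90.5 CPM in the PreASKO library (3404 counts), with a ratio of 0.677 (0.650 to 0.705). It had the most counts of the members in floxed, while Per1 (3575 counts) had the most in PreASKO. Nr1d2 (ID 353187; chromosome 14, 18204056 to 18239106) measured 25.3 and 16.4 CPM, with a ratio of 0.649 (0.590 to 0.713). Their intervals overlap, so with both counts summed these ratios cannot be told apart at this depth. From the repeat-distributed count alone, the log2 difference was -0.59 for Nr1d1 and -0.885 for Nr1d2. Nr1d1 shares 263 exon bases with the thyroid hormone receptor gene Thra on the opposite strand. Thra measured 105.6 CPM in the floxed and 58.99 CPM in the PreASKO library, so it was lower too, and its part in the Nr1d1 values was not tested.

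Ciart (ID 229599; chromosome 3, 95878500 to 95882257), whose product CHRONO represses BMAL1, was the member furthest on the high side. It measured 1.34 CPM in the floxed (83 counts) and 4.28 CPM in the PreASKO library (161 counts), with a ratio of 3.19 (2.43 to 4.21). Its count was the larger one in the library with the smaller total. On the log2(CPM + 1) scale the difference was 1.17, rank 153 from the highest of 13684 genes. That scale understates low genes, and the difference was 0.55 with a pseudocount of 5 and 1.60 with one of 0.1.

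Arntl and Npas2, partners in the activator, did not share 1 pattern. Arntl (ID 11865; chromosome 7, 113178471 to 113314126) measured 41.9 CPM in the floxed (2587 counts) and 41.3 CPM in the PreASKO library (1554 counts), with a ratio of 0.987 (0.926 to 1.05). Npas2 (ID 18143; chromosome 1, 39193702 to 39363240) stood at 31.7 CPM (1956 counts) and 44.3 CPM (1664 counts), with a ratio of 1.40 (1.31 to 1.49). In log2(CPM + 1), Arntl differed by -0.02 and Npas2 by 0.47, against a median of -0.04 over all measured genes. Arntl shares 33 exon bases with Gm45355 on the opposite strand. Of measured genes, 52.4% lay below Arntl and 88.5% below Npas2.

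Read against all genes, the output arm lay mostly on the low side. Of its 9 genes, 7 were lower by any amount, where 54.5% of all measured genes were, and 2 were higher, where 45.5% were. At least 1.5-fold lower were 4 of 9 (Per3, Tef, Dbp and Nr1d2), where 8.18% of all measured genes were, and at least 2-fold lower was Per3 alone, where 1.52% were. Ciart alone was at least 2-fold higher, where 2.11% of all genes were. The median difference of the 9 genes was -0.56, against -0.04 over all measured genes, and their range ran from -1.24 to 1.17. These cutoffs apply to log2(CPM + 1), and without a pseudocount Dbp also had a ratio under 0.5. Raw counts make up under 5% of the counts of 8 of the 10 members, all but Nr1d1 and Nr1d2. Among the 7841 measured genes with under 5% raw counts the median was -0.06, with 8.16% at least 1.5-fold lower. The members were chosen with earlier results of these data known and belong to 1 feedback loop. None of these shares is therefore a test.

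**Figure D2:**
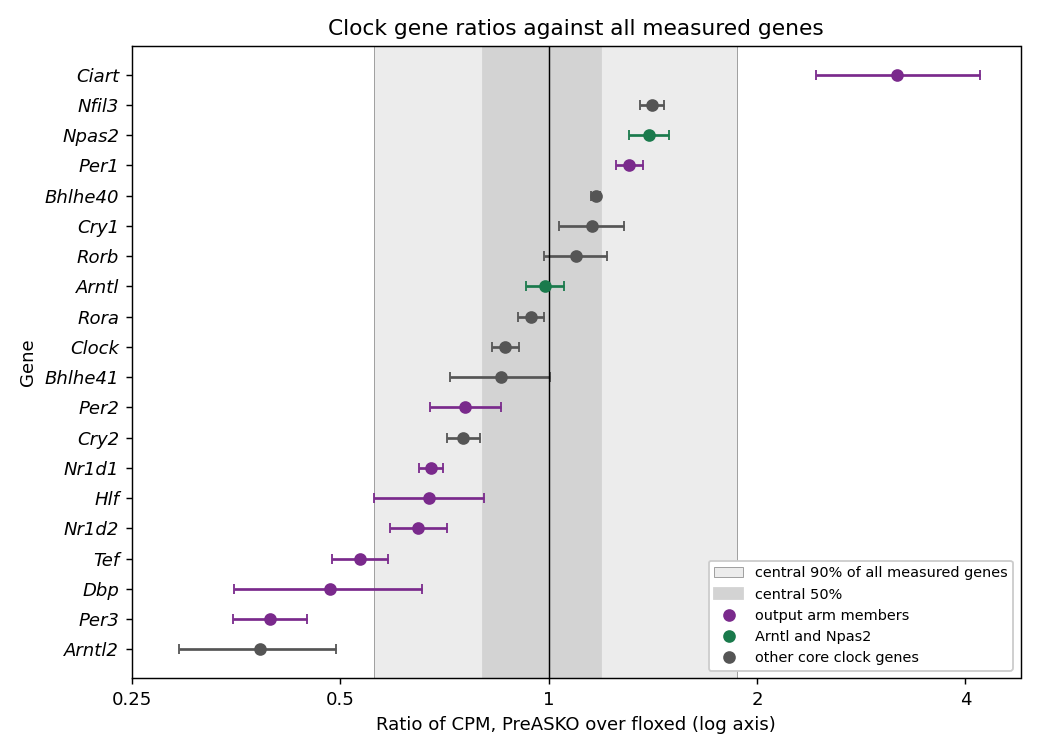
Ratio of CPM, PreASKO over floxed (log axis), for the 9 output arm members (purple), Arntl and Npas2 (green) and 9 other core clock genes (grey), with exact 95% binomial intervals for counting error. The bands hold the central 90% (0.559 to 1.87) and the central 50% (0.803 to 1.19) of 13684 genes, and Per3, Dbp, Tef, Arntl2 and Ciart lie outside the wider band.

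Dividing each gene by Arntl within its own library removes the scaling between libraries. As Arntl itself had a ratio of 0.987, the quotients nearly repeat the CPM ratios and are no separate evidence. Counts of Per3 per count of Arntl were 0.513 in floxed and 0.206 in PreASKO, a quotient of 0.401 (0.349 to 0.461). For Tef the quotient was 0.541 (0.483 to 0.606), for Dbp 0.490 (0.353 to 0.670) and for Hlf 0.681 (0.560 to 0.826). The REV-ERB genes gave 0.686 (0.637 to 0.740) for Nr1d1 and 0.657 (0.586 to 0.737) for Nr1d2, and Per2 gave 0.769 (0.672 to 0.879). All 7 of these intervals lie below 1. Per1, at 1.33 (1.23 to 1.43), and Ciart, at 3.23 (2.44 to 4.29), lie above it, as does Npas2 at 1.42 (1.29 to 1.55). Divided by Npas2 instead, Per1 gave 0.936 (0.864 to 1.01) and Per3 0.284 (0.246 to 0.326), so Per1 and Npas2 differed by similar ratios.

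**Figure D3:**
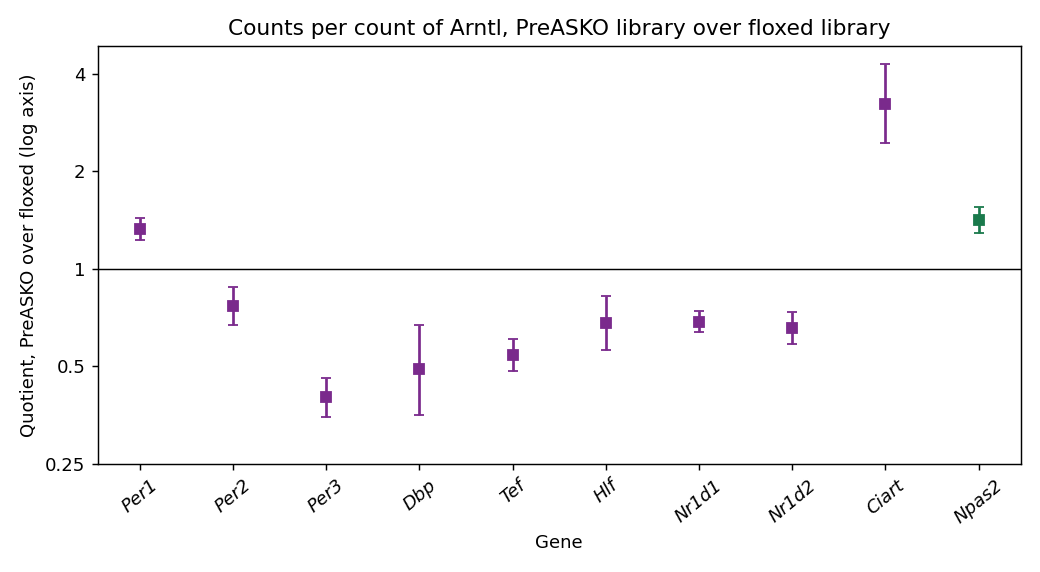
Counts of each gene per count of Arntl in the PreASKO library divided by the same in the floxed library (log axis), with exact 95% intervals for counting error. Per3 is lowest at 0.401 and Ciart highest at 3.23, and the line marks 1.

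Levels of different genes were compared per kilobase of merged exons (GENCODE M21), whichever transcripts were present. The intervals cover counting error and not this choice of length. In the floxed library Nr1d1 stood highest of the 10 members at 43.5 CPM per kilobase, followed by Per1 at 12.9, Arntl at 5.57, Nr1d2 at 4.69 and Tef at 3.81. Per2 (2.49) and Per3 (2.24) followed with overlapping intervals, then Dbp (1.01) and Hlf (1.001), also overlapping, and Ciart at 0.594 stood last. In the PreASKO library the order of the first 5 was the same, with Nr1d1 at 29.4, Per1 at 16.9, Arntl at 5.49, Nr1d2 at 3.04 and Tef at 2.04. Ciart, at 1.89, no longer stood last and had an interval that overlaps those of Tef and of Per2 (1.89). Per3 stood at 0.886, Hlf at 0.673 and Dbp at 0.489, the last pair overlapping.

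Of 9 other core clock genes with a row, 5 were lower, where 54.5% of all measured genes were, and 4 higher, with a median of -0.08. Arntl2, a relative of Arntl, was the exception in size, at 5.15 CPM (318 counts) in floxed against 1.97 CPM (74 counts) in PreASKO, with a ratio of 0.382 (0.293 to 0.494). It was the 1 gene of these 9 past 1.5-fold or 2-fold, where 8.18% and 1.52% of all measured genes were at least that much lower. The cryptochromes, repressors that act with the PER proteins, differed in opposite directions. Cry2 stood at 66.5 and 50.1 CPM, with a ratio of 0.753 (0.712 to 0.795), and Cry1 at 13.2 and 15.2 CPM, a ratio of 1.16 (1.04 to 1.29). Clock stood at 91.9 and 79.5 CPM, with a ratio of 0.866 (0.828 to 0.905).

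Nfil3, a repressor that competes with the PAR bZIP factors at D-boxes, was higher where those factors were lower. It measured 82.6 CPM in the floxed and 116.3 CPM in the PreASKO library, with a ratio of 1.41 (1.35 to 1.47). The raw count alone gave a difference of -1.29 for Nfil3, but it holds only 34 of 5099 and 4 of 4373 counts. The ROR activators barely differed, with Rora at 94.4 and 88.97 CPM (ratio 0.943, 0.903 to 0.984) and Rorb at 14.6 and 15.96 CPM (1.10, 0.986 to 1.22). The E-box repressor gene Bhlhe40 stood at 583.0 and 681.5 CPM, with a ratio of 1.17 (1.15 to 1.19), but its difference was 0.00 from raw counts only and 0.40 from repeat-distributed counts only. Its relative Bhlhe41 stood at 6.83 and 5.83 CPM (0.853, 0.721 to 1.01).

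Among the genes named above as repressed by REV-ERBs, Npas2, Nfil3 and Cry1 were higher and Arntl was level in the library with lower Nr1d1 and Nr1d2. Of all measured genes, 45.5% were higher by any amount. This grouping follows known roles, takes in only the genes named above, was made with the values in view and carries no test. Cry1 had a ratio of only 1.16 (1.04 to 1.29). Clock, a core gene outside the grouping, was lower, at 0.866 (0.828 to 0.905). The part of REV-ERB levels in these values was not tested.

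Genes acting on clock proteins and general outputs of peripheral clocks had list medians nearer to that of all genes (-0.04) than the output arm did. Of 19 modulators, 12 were lower and 7 higher, where 54.5% of all measured genes were lower, with a median of -0.18. On the log2(CPM + 1) scale 1 was at least 1.5-fold lower, where 8.18% of all measured genes were. That gene was Csnk2a1, a catalytic subunit of casein kinase 2, at 54.8 and 35.8 CPM (ratio 0.653, 0.613 to 0.696). The deacetylase gene Sirt1 stood at 18.4 and 12.1 CPM (ratio 0.657), while its fold in the authors' deposited table is 0.25. Where rows shared an Entrez ID, counts were summed but the fold is that of the first row. The cause of the gap for Sirt1 was not tested. Levels were lower too for the ubiquitin ligase gene Fbxw11, at 134.0 and 90.3 CPM, and for Ddb1, a ligase adaptor gene, at 595.5 and 417.5 CPM. Of 20 peripheral outputs 19 were measured, with 11 lower, where 54.5% of all measured genes were, 8 higher and a median of -0.12. Gys2, the remaining gene, had no count in PreASKO and 0.356 CPM in floxed. The cold-inducible RNA-binding protein genes were the lowest outputs, with Cirbp at 18.8 and 10.2 CPM (0.542, 0.482 to 0.609) and Rbm3 at 145.2 and 106.2 CPM (0.731, 0.704 to 0.759), although reads of Rbm3 and of its antisense gene Rbm3os cannot be told apart without strand. Angptl4, a lipase inhibitor gene, was the highest, at 253.0 and 385.4 CPM.

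**Figure D4:**
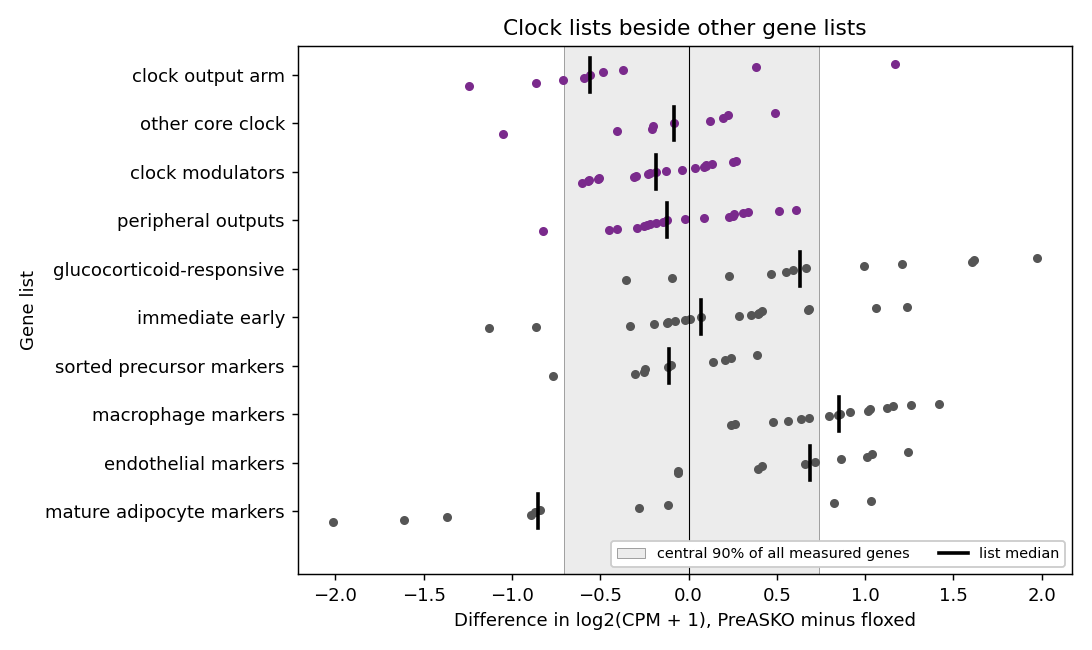
Difference in log2(CPM + 1), PreASKO minus floxed, of each measured gene (points, spread vertically only for legibility) in clock lists (purple) and other lists (grey), with list medians as bars. The output arm has a median of -0.56, other core clock genes -0.08, glucocorticoid-responsive genes 0.63 and macrophage markers 0.85, and the band holds the central 90% of 13684 genes (-0.71 to 0.74).

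Genes that respond to the same direct stimuli as Per1 did not all differ alike. Of 12 glucocorticoid-responsive genes, 10 were higher in PreASKO, where 45.5% of all measured genes were, with a median of 0.63. At least 1.5-fold higher were 7, where 7.89% of all measured genes were. Cebpd stood at 180.0 and 554.3 CPM, the metallothionein genes Mt1 at 205.9 and 629.3 CPM and Mt2 at 266.5 and 617.2 CPM, and Tsc22d3 (GILZ) at 38.3 and 77.1 CPM. However, Fkbp5, another such gene, stood at 28.8 and 22.3 CPM, and Sgk1 at 151.1 and 141.6 CPM. Of 19 immediate early genes, 11 were higher, where 45.5% of all measured genes were, with a median of 0.07. They ranged from Zfp36 (3173 and 7478 CPM) and Jund (124.7 and 261.0 CPM) to Egr2 (281.8 and 154.6 CPM) and Egr3 (58.9 and 26.3 CPM). The part of these stimuli in the Per1 and Per2 values was not tested.

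The libraries also differed in markers of several cell types. For comparison, 45.5% of all measured genes were higher and 54.5% lower by any amount. All 10 markers of the sorted precursors were measured, 4 higher (with Ly6a furthest) and 6 lower (among them Pi16, Pdgfrb and Cd34), and Pdgfra stood at 715.9 and 603.0 CPM. All 16 macrophage markers were higher, with Ms4a7, Aif1, Cd163 and Lyz2 furthest, and their summed level was 1610 CPM in floxed and 3032 CPM in PreASKO. Of 10 measured endothelial markers, 8 were higher, among them Kdr, Cdh5 and Plvap. Tek (153.6 and 147.3 CPM) and Eng (67.8 and 65.0 CPM) were slightly lower. Tek and Eng hold most of the summed levels over all 11, which were 244.1 and 254.7 CPM. Of 10 measured adipocyte markers, 8 were lower (Gpd1, Adipoq and Lipe among them). The 2 higher were Fabp4 (215.6 and 442.8 CPM) and Plin4 (13.4 and 24.5 CPM). Fabp4 holds most of the summed levels of 365.8 and 531.2 CPM, and Lep stood at 0 in floxed. Of 7 measured mural markers, 4 were higher (Myh11 and Abcc9 among them) and 3 lower (Cspg4, Notch3 and Acta2). Abcc9, at 189.1 and 204.8 CPM, holds most of the sums of 328.2 and 333.5 CPM. T and NK cell markers summed to 3.69 and 1.52 CPM, with Cd8a, Nkg7 or Klrb1c at 0 in a library. In such bulk RNA, fewer cells of a type and less RNA per cell cannot be told apart, and the part of these differences in the clock values was not tested.

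The direction of the members, Arntl apart, held under most ways of processing, but most of these could hardly change it. A pseudocount or a minimum level cannot change a direction, and the 2 scalings shifted differences by at most 0.036. The remaining settings draw on largely the same counts for most members. Per2, Per3, Dbp, Tef, Hlf, Nr1d1 and Nr1d2 were lower, and Per1, Ciart and Npas2 higher, in each of 9 settings compared without the raw count alone, wherever the gene passed the minimum. Arntl lay between -0.02 and 0.03. In the authors' deposited table the fold of PreASKO over floxed was 0.406 for Per3, 0.475 for Dbp, 0.545 for Tef, 1.36 for Per1, 3.15 for Ciart, 1.02 for Arntl and 1.43 for Npas2. With the raw count alone, Per1 turned to -0.09, on 40 and 25 raw counts of 4490 and 3575.

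**Figure D5:**
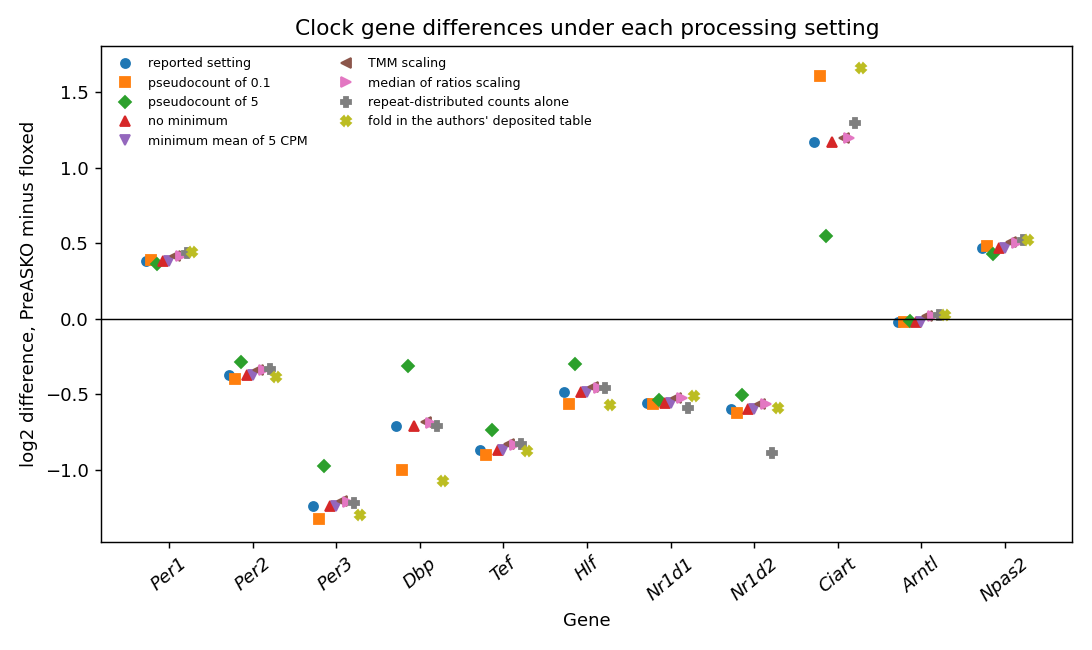
Difference in log2 level, PreASKO minus floxed, of each member and Npas2 under 9 processing settings (coloured symbols). Points of Per3 lie between -1.33 and -0.97 and those of Ciart between 0.55 and 1.66, and the choice of pseudocount spreads the low genes Dbp and Ciart most.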

How the data were processed

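Libraries of polyadenylated RNA were compared, 1 per genotype, with 3 mice pooled per the series design text. Per the submitters' processing notes, the build was mm10. For the aligner, counter, annotation and strand use, the sources used here name none. In the deposited table are a raw count per gene and library, per the file headers, and a repeat-distributed count, an estimated count that need not be whole. How reads were divided between them is not stated; the raw count held 21.9% of the sum in floxed and 24.4% in PreASKO. The authors' deposited fold change is a ratio of unstated normalization.

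Both counts were added per gene, since the deposited fold divided by the ratio of these sums lay within 5% of its median, 1.68, for 97.9% of 11983 genes with at least 100 counts in each library. Of 23669 rows, 24 with a date for a symbol were resolved by Entrez ID, and 22168 rows matched RefSeq. Counts of rows sharing an ID were summed, leaving 23647 genes, while the deposited fold was taken from the first such row. Differences are log2(CPM + 1), PreASKO minus floxed, kept where the mean reached 1 CPM. Intervals (95%) treat rounded counts as independent and cover counting error only. Without replicates no test was made. The members and lists were chosen with earlier results of these data known. The text names all members, Npas2, all other core clock genes and, per further list, the 4 largest differences at a mean of at least 5 CPM; Fkbp5, Sgk1, Gys2, Pdgfra, Thra, Sphk2, the markers listed at 0 and the genes of the closing observations were added with values in view, and 1 gene this rule names is not reported here. Alternatives were pseudocounts, minimum levels, TMM (edgeR 4.0.16) and median-of-ratios (DESeq2 1.42.0) scaling, each count alone and the deposited fold. Python 3.11.15 and SciPy 1.17.1 were used. The procedure was also run on Poisson counts simulated from these libraries. Such counts hold counting error only, so that run cannot show how the procedure handles variation between animals.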

Additional observations from a re-analysis of the deposited data

How the results depend on the processing

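Without replicates, depth limits the low genes Dbp and Ciart most, and no setting measures variation between animals. No paired analysis was possible because each genotype has 1 library and the result comes from no test. TMM and median-of-ratios scaling shifted differences by at most 0.036 and 0.035, less for low genes, and moved Bhlhe40 to 0.26. The number of genes at least 2-fold higher and lower was 289 and 208. It was 515 and 412 with a pseudocount of 0.1, 58 and 28 with one of 5, 153 and 93 at a mean of at least 5 CPM, 465 and 907 with the raw count alone, and 597 and 474 by the fold in the authors' deposited table. At 1.5-fold it was 1080 and 1120, and at 3-fold 30 and 22. Of the output arm, 1 gene was at least 2-fold lower; this became 2 with a pseudocount of 0.1 or the authors' fold, 4 at 1.5-fold, and 0 with a pseudocount of 5, at 3-fold, with the raw count alone or without the PER genes. The raw count alone left 3 output genes above the minimum, all 3 lower. Without the PAR bZIP genes 4 of 6 remaining output genes were lower, and the arm's median, -0.56, was -0.46; with a pseudocount of 5 it was -0.31. The median of other core clock genes, -0.08, was 0.019 at a mean of at least 5 CPM, -0.019 by the authors' fold and -0.67 with the raw count alone, which turned the median of peripheral outputs to 0.091. With the raw count alone the cause was not tested. The repeat-distributed count alone gave -0.89 for Nr1d2 and -0.61 for Cry2.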

Other observations

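The genes named here were picked with their values in view. The casein kinase genes Csnk1d and Csnk1e, whose products mark PER proteins for breakdown, stood at 171.1 and 167.0 CPM and at 56.9 and 67.98 CPM in floxed and PreASKO. Gsk3b, a kinase gene of the same network, was lower at 254.9 and 179.1 CPM, a ratio of 0.703 (0.683 to 0.723).

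The REV-ERB corepressor genes Ncor1 and Hdac3 stood at 226.1 and 242.7 CPM and at 70.5 and 56.7 CPM. Among further outputs, Nampt, the rate-limiting gene of NAD salvage, stood at 36.5 and 45.3 CPM (ratio 1.24, 1.17 to 1.32). The cell cycle kinase gene Wee1 stood at 54.5 and 57.9 CPM (1.06, 1.01 to 1.12). Its fold in the authors' deposited table is 1.75, that of the first row where rows share an ID. The cause of the gap for Wee1 was not tested. Noct, a rhythmic phosphatase gene, stood at 52.1 and 51.5 CPM (0.988, 0.933 to 1.05).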
